A study of Mus musculus with 6 samples.

Results

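The genes that write, maintain and remove DNA methylation were examined in the liver of mice given trichloroethylene (TCE), an organic solvent. They are the DNA methyltransferases Dnmt1, Dnmt3a, Dnmt3b and Dnmt3l, the UHRF proteins Uhrf1 and Uhrf2, the TET enzymes Tet1, Tet2 and Tet3, and the DNA glycosylase Tdg. Members were all probes that carry 1 of these 10 gene symbols in the annotation deposited with the arrays, whatever their values. This gave 22 probes of the 55681 probes on the array that are not controls, or 10 of 24239 genes. A probe was called detected where every array of 1 group or of both had a signal well above the local background, and 13 member probes of 9 genes were detected, among 22731 detected probes of 13284 genes in the whole data set. The 9 member probes that were not detected belong to Dnmt3l, Uhrf1, Tet1, Tet2, Tet3 and Tdg, and 4 member probes were above background on none of the 6 arrays.

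All 6 animals were male B6C3F1 mice, a hybrid of inbred strains, aged 7 weeks by the labels. The 3 control mice received corn oil by mouth for 5 days, and the 3 TCE mice received TCE in corn oil at 1000 mg/kg body weight per day over the same time. Liver RNA of each mouse was hybridized to an array of its own with a single dye, so that n = 3 mice in each group throughout. Whole liver was used, so that fewer cells of a type and less RNA per cell cannot be told apart.

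In mammals, Dnmt3a and Dnmt3b place methyl groups on cytosines of CpG dinucleotides that carried none, and Dnmt3l is a partner without catalytic activity that acts mainly in germ cells and early embryos. At replication Dnmt1 copies the pattern onto the new strand, to which it is brought by Uhrf1, a protein that binds CpG methylated on a single strand and is abundant in dividing cells. The TET enzymes oxidize 5-methylcytosine with oxygen and 2-oxoglutarate, and Tdg cuts the later oxidation products out of DNA so that base excision repair can restore cytosine.

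The values below rest on single 60-base probes, and probes of a gene can sit far apart in its transcript. The first 30 bases are shown for the probes whose groups did not overlap and for the other probes of Uhrf1 and Dnmt3b, since the readings of those genes differed with the probe. A number in parentheses is the first base of the probe in its transcript as the array annotation gives it. The annotation names no genome build, and its positions were taken as mm9.
Uhrf1 (3430), chr17:56462770-56462829, plus strand: tgtgtctcatggaaactaaaccatttacta
Uhrf1 (985), within chr17:56451668-56452321, plus strand: agctatacggcaacatcaggctcttgaatg
Dnmt3a (9611), chr12:3914320-3914379, plus strand: atgttgatgtggaatcttactttcaaatgg
Dnmt3b (2950), chr2:153512098-153512157, plus strand: tgtttgcccccttgaaggaccactttgcct
Dnmt3b (3843), chr2:153512991-153513050, plus strand: tcaggtccccagaaccccctagttcctcat
Dnmt3b (4255), chr2:153513403-153513462, plus strand: gtgcaaagatgacagatgcccagagtttac
Tet2 (9011), chr3:133126751-133126810, minus strand: gcttacttcctgagattttggctttgttta
Tet2 (8857), chr3:133126905-133126964, minus strand: acgcacagtgatgtatagttcactttacaa
Tdg (1178), chr10:82110701-82110760, plus strand: acgcaaagaagatggctgttaaggaagaaa

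The Uhrf1 probe that starts at base 985 covers 654 bases of genome with 60 bases of sequence and so crosses at least 1 exon junction. The Dnmt1 probe, at chr9:20711973-20712341 on the minus strand, covers 369 bases and also crosses a junction. The other sequences shown each lie in 1 stretch of genome.

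The 250 bases before the RefSeq start (GRCm38.p6) are shown for 4 members whose groups did not overlap, taking the most upstream of the starts where a gene has several. CpG dinucleotides are sites where such enzymes can act, but the arrays do not measure methylation of these windows. Capitals mark 2 motifs that were searched on both strands after the sequences were seen, the E2F motif TTCCCGCC and the CCAAT box CCAAT.
Uhrf1, chr17:56303087-56303336, plus strand: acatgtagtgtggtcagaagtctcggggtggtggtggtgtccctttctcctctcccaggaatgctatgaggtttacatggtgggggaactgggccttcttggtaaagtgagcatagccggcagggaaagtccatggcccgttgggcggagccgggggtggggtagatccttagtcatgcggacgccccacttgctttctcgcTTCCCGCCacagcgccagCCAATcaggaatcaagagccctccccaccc
Dnmt3a, chr12:3806730-3806979, plus strand: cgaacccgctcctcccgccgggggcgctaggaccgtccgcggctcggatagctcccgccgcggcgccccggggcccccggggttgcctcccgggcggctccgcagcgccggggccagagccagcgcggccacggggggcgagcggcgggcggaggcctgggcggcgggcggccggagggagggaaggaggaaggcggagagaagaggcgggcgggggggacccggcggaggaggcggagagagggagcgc
Dnmt3b, chr2:153649199-153649448, plus strand: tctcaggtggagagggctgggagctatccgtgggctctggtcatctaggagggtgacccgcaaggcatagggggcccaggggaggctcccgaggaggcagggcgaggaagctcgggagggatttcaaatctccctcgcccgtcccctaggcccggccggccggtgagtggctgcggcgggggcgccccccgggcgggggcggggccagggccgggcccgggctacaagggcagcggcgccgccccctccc
Tet2, chr3:133544391-133544640, minus strand: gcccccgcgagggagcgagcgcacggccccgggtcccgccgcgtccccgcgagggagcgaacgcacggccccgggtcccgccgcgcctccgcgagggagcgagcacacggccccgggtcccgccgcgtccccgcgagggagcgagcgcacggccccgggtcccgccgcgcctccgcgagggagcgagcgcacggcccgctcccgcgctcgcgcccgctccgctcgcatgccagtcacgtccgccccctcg

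The Tet2 window held 51 CpG and the Dnmt3a window 38, against a median of 6 over the 32841 windows of all mouse genes. The Dnmt3b window held 21 CpG and this Uhrf1 window 10, while the other Uhrf1 window, further downstream, held 30. All 10 members had at least 1 window, and 13 of their 17 windows held more CpG than the median. Uhrf1 was the only member with a match to TTCCCGCC or to TTTCCCGC, another E2F motif that shares most of its letters, and 2.3% of all windows hold either. The match lay in the Uhrf1 window shown, and the other Uhrf1 window held neither motif. CCAAT, found here in windows of Uhrf1, Dnmt1, Tet3 and Tdg, occurs in 33.9% of all windows. A match describes the letters of the window and shows no binding.

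In TCE mice the signal of Uhrf1 was 5.04-fold higher at the probe that was detected and that of Tdg was 0.33 higher on the log2 scale, while those of Dnmt3a, Dnmt3b and Tet2 were 1.61-fold, 1.67-fold and 1.40-fold lower at their brightest probes. The signals of Dnmt1, Uhrf2 and Tet1 overlapped between the groups with mean log2 differences of 0.05, 0.11 and -0.03, and that of Tet3 also overlapped, with wide spread. None of these differences passed the threshold after adjustment over the whole array. By limma, with p-values adjusted over all 22731 detected probes, 0 of the 13 detected member probes passed the threshold of an adjusted p of 0.05 and a fold change of 2, against 1.41% of all detected probes. At the same adjusted p and any fold change the count was also 0, against 2.01% of all. Without adjustment 6 member probes had a limma p of 0.05 or less, against 17.9% of all, and the methods' t-test gave the same 6 probes, against 16.9% of all. In these 6 probes the values of the TCE mice lay entirely outside those of the control mice. Uhrf1 (3430) and Tdg (1178) were higher in TCE mice, or 2 of 13. This share is near the 15.5% of all detected probes. Dnmt3a, Dnmt3b (4255) and both Tet2 probes were lower in TCE mice, or 4 of 13, against 10.2% of all. Of the 6 probes, Uhrf1 (3430) counted as detected only through the TCE mice, where it was high. An exact permutation test with 3 mice against 3 cannot give a two-sided p below 0.1, the value reached by each of the 6 probes. The 2 Tet2 probes read the same transcript and are not independent. Over the 13 member probes, 9 had a lower and 4 a higher mean in TCE mice, and their median log2 fold change was -0.24, where the median over all detected probes was 0.02.

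**Figure D1:**
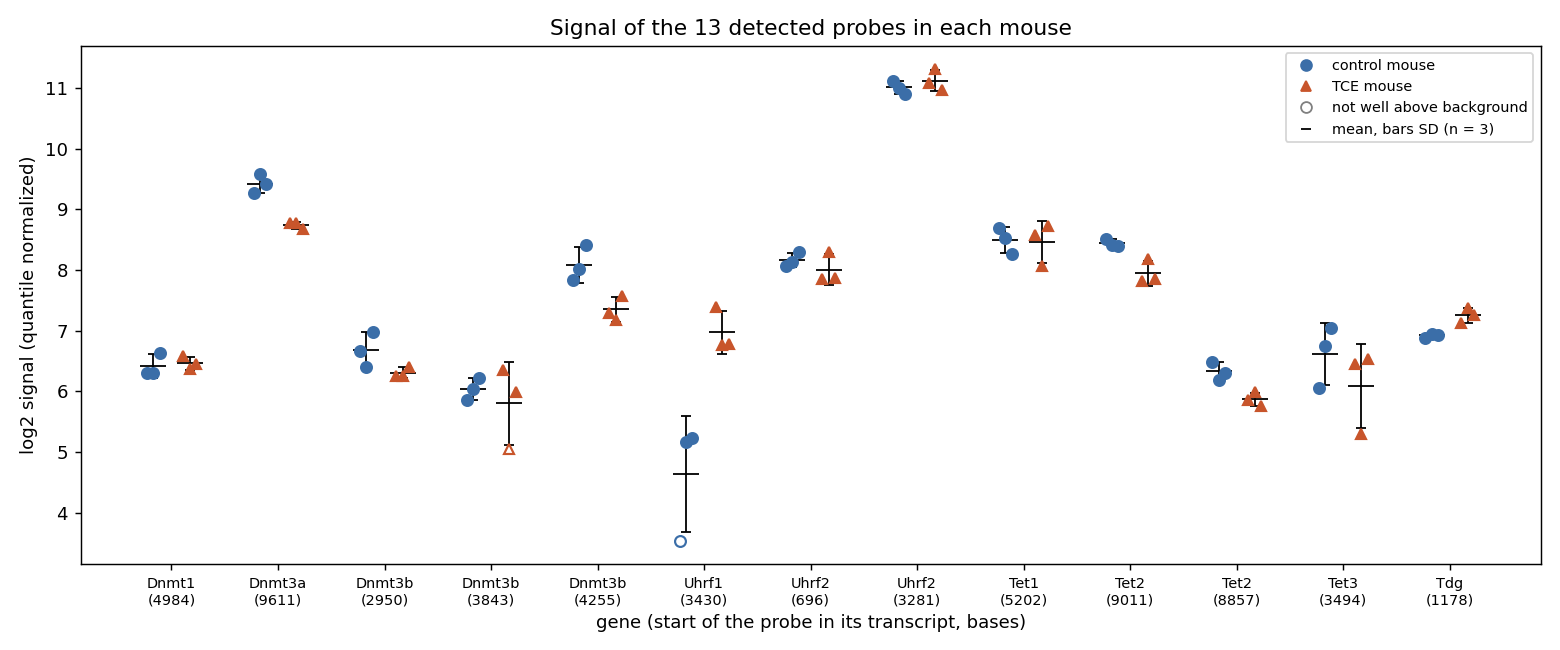
Log2 signal after quantile normalization (vertical axis) of the 13 detected member probes (horizontal axis, with the first base of the probe in its transcript) in each of 3 control mice (circles) and 3 TCE mice (triangles), with means and SD. The groups are separate for Dnmt3a, Dnmt3b (4255), Uhrf1 (3430), both Tet2 probes and Tdg, and overlap for the others. Open symbols are signals not well above background.

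The largest difference among the members was in Uhrf1, the factor that brings Dnmt1 to newly copied DNA. At the probe in the 3′ part of the transcript (3430) the log2 signal was 3.53, 5.16 and 5.22 in control mice 1, 2 and 3, and 7.38, 6.75 and 6.79 in TCE mice 1, 2 and 3. Every TCE mouse was above every control mouse, and control mouse 1, whose signal was not well above background, was the lowest of the 6. The probe thus counted as detected only through the TCE mice, where its signal was high. The means were 4.64 ± 0.96 (SD, n = 3) and 6.97 ± 0.35 (SD, n = 3), a log2 difference of 2.33 ± 0.48 (SE), or 5.04-fold, with a 95% interval of 1.19 to 3.48. Its limma adjusted p was 0.0740, so it did not pass the threshold. The exact permutation p was 0.1. The array of control mouse 1 was the only one on its slide and in its scan, while the other 5 arrays shared both. Without that mouse the log2 difference was 1.78, with a limma adjusted p of 0.0519. With any other mouse left out the limma adjusted p was 0.119 to 0.208. With no filter on dim probes it was 0.241. With another background correction (normexp) the log2 difference was 0.91, or less than 2-fold, and the limma adjusted p of 0.0194 was below the threshold. That correction adds an offset of 50 to each signal, which shrinks the log2 differences of dim probes such as this one. Both background corrections placed the TCE mice higher.

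The other Uhrf1 probe (985) did not follow this pattern. Its log2 signal was 2.59, 3.91 and 7.40 in control mice and 2.63, 2.68 and 2.70 in TCE mice. Control mouse 3 was the only mouse with a signal well above background, so that no TCE mouse had a signal well above background at this probe, although these mice gave the higher signal at probe 3430. The probe was not tested across groups by limma, and its exact permutation p was 0.4. The higher reading in TCE mice therefore rests on 1 of the 2 Uhrf1 probes. The paralog Uhrf2, a related ubiquitin ligase with a similar domain structure, had 2 detected probes that overlapped between the groups. Its brighter probe (3281) read 11.12, 11.00 and 10.90 in control mice and 11.08, 11.30 and 10.97 in TCE mice on the log2 scale, a difference of 0.11 ± 0.14 (SE) with a 95% interval of -0.22 to 0.44. Its dimmer probe (696) differed by -0.16 ± 0.16 (SE), with an interval of -0.55 to 0.23. The limma adjusted p of the 2 probes was 0.712 and 0.652, and both intervals lie within a 2-fold change.

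**Figure D2:**
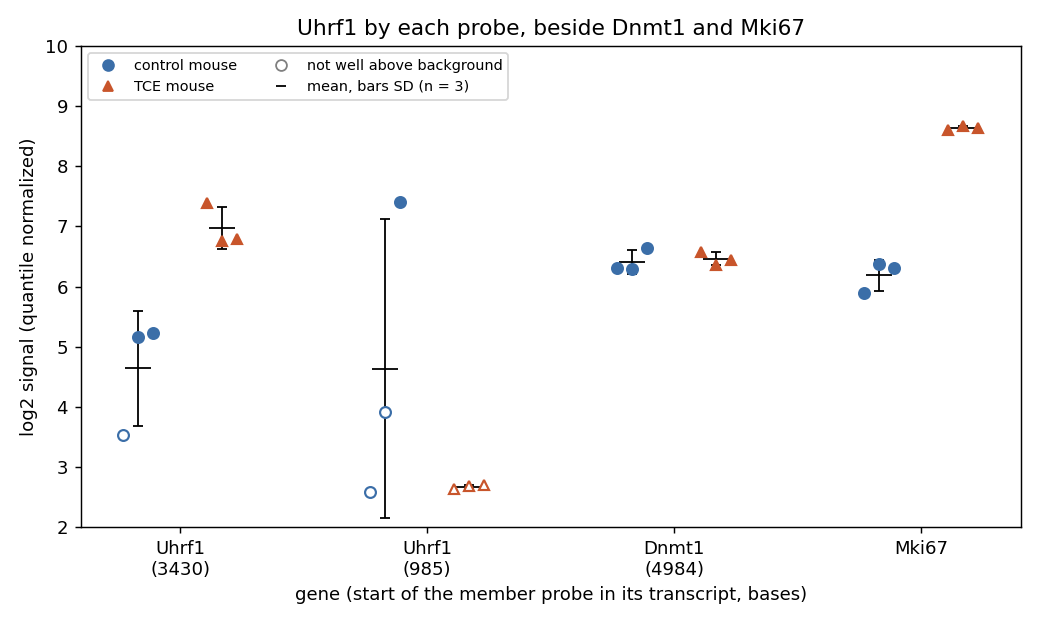
Log2 signal (vertical axis) in 3 control mice (circles) and 3 TCE mice (triangles) for both Uhrf1 probes, Dnmt1 and Mki67, with means and SD, where open symbols are signals not well above background. At probe 3430 all TCE mice lie above all control mice, at probe 985 only control mouse 3 has a signal well above background, and Dnmt1 overlaps between groups.

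Dnmt1, the maintenance methyltransferase itself, was measured by 1 probe, and its log2 signal was 6.31, 6.29 and 6.64 in control mice and 6.57, 6.36 and 6.44 in TCE mice. The groups overlapped, and the means were 6.41 ± 0.19 (SD, n = 3) and 6.46 ± 0.11 (SD, n = 3). The log2 difference was 0.05 ± 0.14 (SE), with a 95% interval of -0.29 to 0.39 and a limma adjusted p of 0.895. The interval leaves room for a modest difference in either direction and lies within a 2-fold change. Uhrf1 (3430) and Dnmt1 were then compared within each mouse. The signed log2 difference of Uhrf1 minus Dnmt1 was -2.77 to -1.13 in control mice and 0.34 to 0.81 in TCE mice, a shift of 2.29 without overlap. Signals of different probes do not compare as levels of RNA, so only the shift can be read. Uhrf1 (3430) was already higher in every TCE mouse, by more than the whole spread of Dnmt1. The separation of their difference was thus fixed by the Uhrf1 values and adds no evidence. The pair was 1 of 11 probe pairs compared, chosen after the values were seen, with an exact permutation p of 0.1, or 0.183 after adjustment over the 11.

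The de novo methyltransferases did not pass the threshold at any probe, and their groups were separate at the Dnmt3a probe and at 1 of 3 Dnmt3b probes. Dnmt3a was measured by 1 probe, whose log2 signal was 9.26, 9.58 and 9.41 in control mice and 8.77, 8.77 and 8.67 in TCE mice. The 3 TCE mice lay close together and below every control mouse, and each of the 6 arrays had a signal well above background. The means were 9.42 ± 0.16 (SD, n = 3) and 8.74 ± 0.06 (SD, n = 3), a log2 difference of -0.68 ± 0.13 (SE), or 1.61-fold lower, with a 95% interval of -0.99 to -0.38. The interval does not reach a 2-fold decrease. The limma adjusted p was 0.0581, just above the threshold, and 0.0391 when limma let the prior spread follow the signal and limited the weight of outlying probes. It was 0.124 with no filter on dim probes, 0.168 with the replicate number as a block and 0.0988 to 0.202 with each mouse left out.

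Dnmt3b was measured by 3 probes, all detected. At the probe that starts furthest downstream (4255) the log2 signal was 7.83, 8.01 and 8.41 in control mice and 7.30, 7.18 and 7.57 in TCE mice. No TCE mouse reached the lowest control mouse. The means were 8.09 ± 0.30 (SD, n = 3) and 7.35 ± 0.20 (SD, n = 3), a log2 difference of -0.74 ± 0.19 (SE) with a limma adjusted p of 0.127. At probe 2950 the log2 signal was 6.66, 6.41 and 6.98 in control mice and 6.25, 6.24 and 6.41 in TCE mice. Here the highest TCE mouse met the lowest control mouse, and the log2 difference was -0.38 ± 0.17 (SE), with a limma adjusted p of 0.308. At probe 3843, the dimmest, the log2 signal was 5.86, 6.03 and 6.22 in control mice and 6.36, 5.04 and 5.99 in TCE mice. TCE mouse 1 was the highest and TCE mouse 2 the lowest of all 6, and TCE mouse 2 was not well above background. The log2 difference of -0.24 ± 0.34 (SE) had an interval of -1.05 to 0.57, and without TCE mouse 2 the difference was 0.14. All 3 probes thus had a lower mean in TCE mice, while 1 of them had groups that did not overlap. The difference between probes 4255 and 2950 shifted by -0.36 on the log2 scale, with an exact permutation p of 0.1, or 0.183 after adjustment over the 11 pairs.

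The signed log2 difference of Dnmt3a minus Dnmt1 within a mouse was 2.77 to 3.29 in control mice and 2.19 to 2.41 in TCE mice, a shift of -0.73. That of Dnmt3b (4255) minus Dnmt1 shifted by -0.78. Neither overlapped between the groups, and the exact permutation p was 0.1 for each, or 0.183 after adjustment over the 11 pairs. Dnmt3a was already lower in every TCE mouse, by more than the whole spread of Dnmt1. The separation of that pair was thus fixed by the Dnmt3a values and adds no evidence. Dnmt3b (4255) was also already lower in every TCE mouse, so its pair is not independent evidence. Dnmt3l, the catalytically inactive partner, had no array with a signal well above background, with log2 signals between 3.46 and 4.07 in control mice and between 3.88 and 4.60 in TCE mice. No fold change is given for Dnmt3l.

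**Figure D3:**
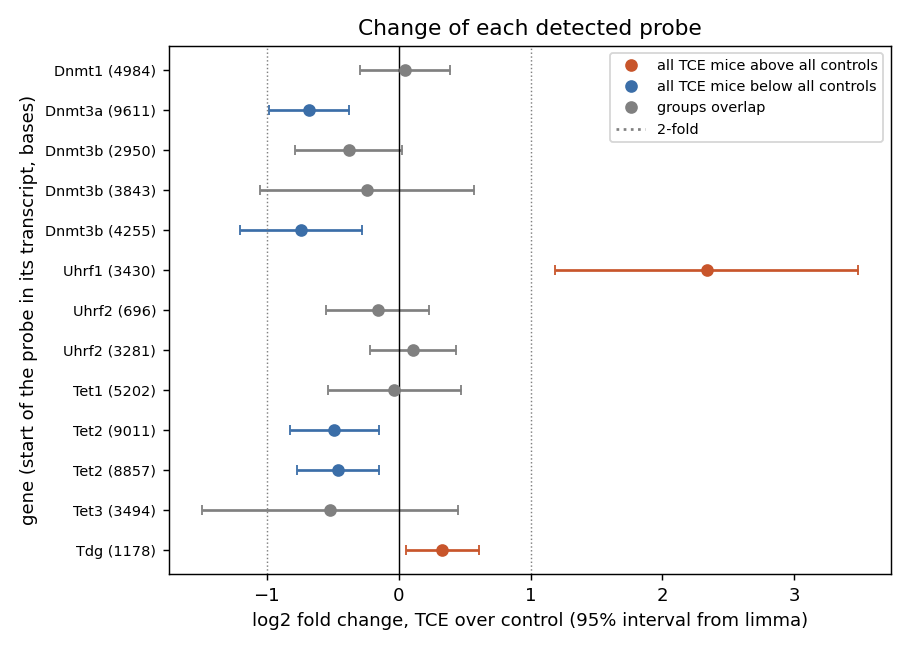
Log2 fold change of TCE over control mice (horizontal axis, points) with the 95% interval from limma (bars) for the 13 detected member probes (vertical axis). Dotted lines mark a 2-fold change, and colors mark probes whose groups do not overlap. The Uhrf1 interval, 1.19 to 3.48, lies beyond 2-fold, and those of Dnmt3a, both Tet2 probes and Tdg lie between 0 and 2-fold. The Uhrf1 probe counted as detected only through the TCE mice.

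Among the TET enzymes, Tet2 had the lower signal in TCE mice at both detected probes, which lie close together. At probe 9011 the log2 signal was 8.51, 8.40 and 8.39 in control mice and 7.81, 8.18 and 7.85 in TCE mice. The groups did not overlap, and TCE mouse 2 was the nearest to the control mice. The means were 8.44 ± 0.07 (SD, n = 3) and 7.95 ± 0.21 (SD, n = 3), a log2 difference of -0.49 ± 0.14 (SE), or 1.40-fold lower, with a limma adjusted p of 0.148. Probe 8857 read 6.48, 6.19 and 6.31 in control mice and 5.85, 5.98 and 5.76 in TCE mice, again without overlap. Its log2 difference was -0.46 ± 0.13 (SE), with a limma adjusted p of 0.143. Both probes gave a difference of nearly the same size, and the shift between them was 0.03 on the log2 scale with an exact permutation p of 0.8, or 0.8 after adjustment over the 11 pairs. The 3rd Tet2 probe (668), far upstream, was above background in TCE mouse 2 alone and was not tested.

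Tet1 and Tet3 each had 1 detected probe of 3, and neither separated the groups. Tet1 (5202) had a log2 signal of 8.69, 8.52 and 8.27 in control mice and 8.57, 8.07 and 8.73 in TCE mice. The lowest and the highest mouse were both TCE mice, and the difference was -0.03 ± 0.21 (SE), with an interval of -0.54 to 0.47 and a limma adjusted p of 0.953. Tet3 (3494) had a log2 signal of 6.05, 6.75 and 7.04 in control mice and 6.44, 5.29 and 6.53 in TCE mice. Its difference of -0.52 ± 0.40 (SE) was as large as that of Tet2, but the mice within a group were spread far more widely, the interval ran from -1.49 to 0.45, which takes in a decrease of more than 2-fold. The limma adjusted p was 0.553. The other Tet1 probes were above background on no array, and of the other Tet3 probes 1 was above it in control mouse 2 and TCE mouse 1 and 1 on no array. The shift of Tet2 (9011) relative to Tet1 was -0.45 on the log2 scale, with an exact permutation p of 0.3, or 0.367 after adjustment over the 11 pairs, so that a smaller change of Tet1 than of Tet2 was not shown.

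Tdg, the glycosylase that acts after the TET enzymes, was higher in TCE mice at the probe that was detected (1178). Its log2 signal was 6.88, 6.94 and 6.93 in control mice and 7.13, 7.38 and 7.25 in TCE mice. The control mice lay within 0.062 of each other, and every TCE mouse was above them. The means were 6.92 ± 0.03 (SD, n = 3) and 7.25 ± 0.12 (SD, n = 3), a log2 difference of 0.33 ± 0.11 (SE) with a 95% interval of 0.06 to 0.61 and a limma adjusted p of 0.211. The 2 probes further downstream were above background in 3 and 2 of the 6 mice and showed no separation. The signed log2 difference of Tdg minus Tet2 (9011) within a mouse was -1.63 to -1.46 in control mice and -0.81 to -0.60 in TCE mice, a shift of 0.82, with an exact permutation p of 0.1, or 0.183 after adjustment over the 11 pairs. Tdg was already higher and Tet2 (9011) already lower in every TCE mouse. The separation of their difference was thus fixed by those values and adds no evidence.

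Marker genes of liver cell types were set beside these values. Of 8 hepatocyte markers 8 were detected, 3 with a higher and 5 with a lower mean in TCE mice. The mean log2 signal of the 5 detected stellate cell markers of 6 lay between 8.78 and 9.31 in control mice and between 8.26 and 8.73 in TCE mice, so that the groups did not overlap. The markers did not move together, since 2 had a higher and 3 a lower mean in TCE mice and their median log2 change was -0.17. All 7 endothelial markers had a lower mean in TCE mice, with mean log2 signals of 10.34 to 10.54 in control mice and 9.67 to 10.50 in TCE mice. Of 8 Kupffer cell and macrophage markers 7 had a lower mean in TCE mice, with a median log2 change of -0.10, and of the 4 detected bile duct markers of 6 all 4 did, with a median of -0.18. Of 8 T, B and NK cell markers 2 were detected, Cd3e and Cd79a, each well above background on all 6 arrays. They differed by -0.63 and 0.40 on the log2 scale, with overlapping groups and limma adjusted p of 0.275 and 0.498. Cd3d, Cd3g, Ms4a1, Ncr1 and Klrb1c were among those not detected. Of the 4 detected neutrophil markers of 5, 3 had a higher mean in TCE mice, with mean log2 signals of 7.73 to 8.29 in control and 8.24 to 8.73 in TCE mice. Among red cell precursor markers, 4 of 5 were detected, 1 with a higher and 3 with a lower mean in TCE mice. Tfrc, the transferrin receptor, named after its values were seen, was the higher one, by 0.97 on the log2 scale with a limma adjusted p of 0.118, and Alas2, an enzyme of heme synthesis, fell by 0.91 on the log2 scale with a limma adjusted p of 0.0215, the only marker of any list to pass. The part of these cell types in the differences of Dnmt3a, Dnmt3b, Tet2 and Uhrf1 was not tested.

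Other genes of DNA methylation were then counted by their brightest detected probe, where 2.39% of the 13284 genes had a limma adjusted p of 0.05 or less. In 5 lists that cover methylation and its substrates, with 82 different genes detected, 0 genes passed, and 11 had an unadjusted limma p of 0.05 or less, against 19.1% of all genes. Of 17 partners of maintenance methylation 14 were detected, 6 with a higher and 8 with a lower mean in TCE mice and a median log2 change of -0.04. Their largest differences were those of the histone methyltransferase Ezh2 at 0.33, the deacetylase Hdac1 at -0.22 and the replication clamp Pcna at 0.18, with limma adjusted p of 0.246, 0.352 and 0.491. Of 10 methyl-CpG readers 9 were detected, 3 higher and 6 lower with a median of -0.11, and the largest were Zbtb33 at -0.28, Zbtb4 at -0.26 and Mbd6 at -0.20. Mbd4, a reader that is also a glycosylase, was not detected.

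The demethylation and base excision repair list, which includes Tdg, had 18 of 23 genes detected, 10 higher and 8 lower with a median log2 change of 0.06. Gadd45b, a stress-response gene that has been linked to active demethylation, had log2 signals of 7.44, 6.72 and 7.03 in control mice and 8.96, 9.16 and 7.77 in TCE mice. The groups did not overlap, and the difference of 1.57 ± 0.39 (SE) had a limma adjusted p of 0.115. The glycosylases Ogg1 and Neil2 differed by -0.81 and 0.65, with limma adjusted p of 0.334 and 0.316. In the methionine and S-adenosylmethionine cycle, which supplies the methyl group, 27 of 28 genes were detected, 12 higher and 15 lower with a median of -0.01. Mthfd1l, an enzyme of mitochondrial folate metabolism, was higher by 1.29 ± 0.25 (SE) on the log2 scale with a limma adjusted p of 0.0674, while Gamt, which consumes S-adenosylmethionine to make creatine, differed by -0.58. For 2-oxoglutarate, the cosubstrate of the TET enzymes, all 14 genes were detected, 10 higher and 4 lower with a median of 0.06. The isocitrate dehydrogenases Idh1 and Idh2, which make it, were at 0.32 and 0.27 and the succinate dehydrogenase subunit Sdhc at 0.22, with limma adjusted p of 0.263, 0.279 and 0.387.

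DNA replication and proliferation genes were included because Uhrf1 is a gene of dividing cells. Of 32 genes 28 were detected, and 27 had a higher and 1 a lower mean in TCE mice, with a median log2 change of 0.50 where the median of all 13284 genes was 0.02. Over all genes, 7060 of 13284 had a higher mean. In this list 3 of 28 genes passed the limma threshold, all higher, against 2.39% of all genes, and 14 had an unadjusted limma p of 0.05 or less, against 19.1% of all. Of the 3 genes, Ccna2 and Ccnb1 passed the filter on dim probes only through the TCE mice, where they were high, and over the 6 lists together 1 gene passed when all 6 arrays had to be above background. Some others of the 14 genes entered in the same way. The counts of 14 and of 27 and the median of 0.50 thus lean toward genes higher in TCE mice. The proliferation marker Mki67 had log2 signals of 5.89, 6.37 and 6.30 in control mice and 8.61, 8.66 and 8.63 in TCE mice, and rose by 2.44 ± 0.15 (SE) with a limma adjusted p of 0.00176. Cyclin A2 (Ccna2) rose by 2.58 ± 0.22 (SE) with a limma adjusted p of 0.00544, and 2 of 3 control mice had a signal well above background. Cyclin B1 (Ccnb1), which had 0 control mice with a signal well above background, was at least 4.04-fold higher in TCE mice, the bound being set against the dimmest signal called above background on each control array, or against the signal of Ccnb1 itself if brighter, with a limma adjusted p of 0.0302. Beside them, the log2 difference of Uhrf1 (3430) was 2.33, with a limma adjusted p of 0.0740. The interval of Dnmt1, which also acts at replication, ended at 0.39. The part of proliferation in the Uhrf1 difference was not tested.

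**Figure D4:**
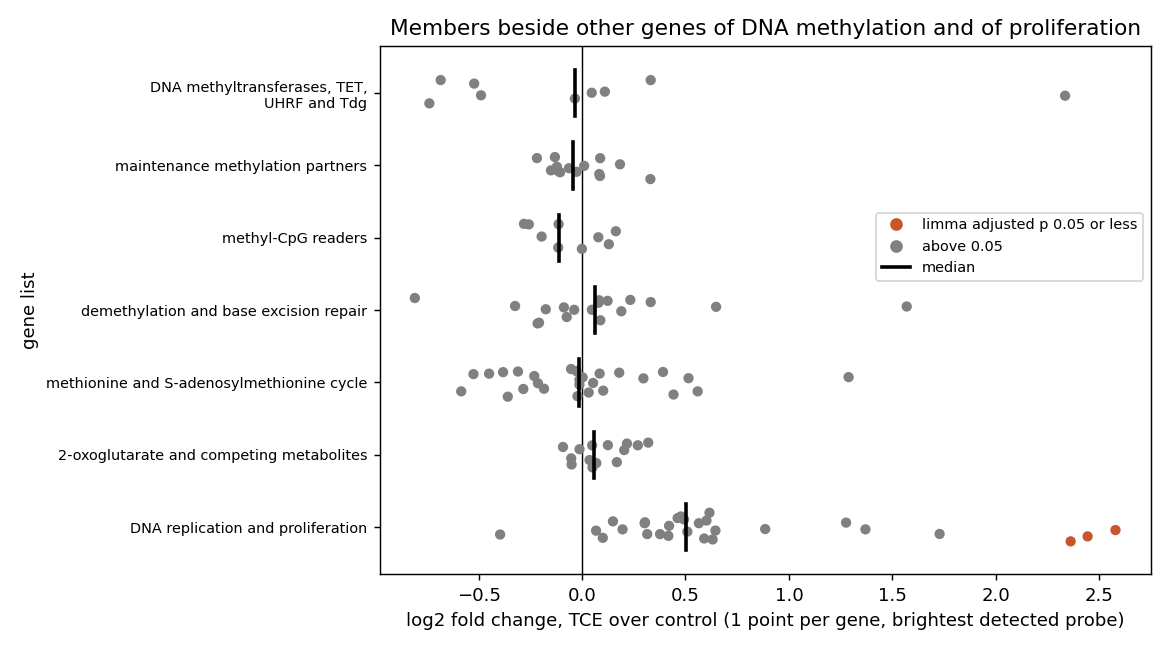
Log2 fold change of TCE over control mice (horizontal axis) with 1 point per gene, by its brightest detected probe, for the members (top) and 6 lists of other genes, with the median of each list as a black bar. The points with a limma adjusted p of 0.05 or less are 3 genes of DNA replication and proliferation, a list whose median was 0.50 while the member median was -0.03. Of the 3 genes, Ccna2 and Ccnb1 passed the filter on dim probes only through the TCE mice, where they were high.

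Last, the genes whose pattern over the 6 mice was nearest to each member were found from the root mean square difference of log2 signals after centering each gene. For Uhrf1 (3430) they were Cerkl, Cpt1b and Raet1c, at distances of 0.245, 0.305 and 0.307. These distances were larger than for any other member. For Dnmt3a they were Gba2, Glul and Mblac2, at 0.045 to 0.061, and for Dnmt3b (4255) Phf15, Ttc39c and Irf2bpl, at 0.102 to 0.116. Slc9a3r2, Bcl2a1d and Lrpap1 were nearest to Tet2 (9011), at 0.043 to 0.051. Pet112, Dpf2 and Tma7 were nearest to Tdg, at 0.028 to 0.038. The genes nearest to the members whose groups overlapped were Enthd2, Chd2 and LOC100045367 for Dnmt1, Gak, Rps3a and Rps4x for Uhrf2, Exd2 and Rbm17 for Tet1, and Ick, Ube2s and Gm11213 for Tet3. The distance of Uhrf2 to Gak, 0.017, was the smallest of the nearest distances. At most 17449 probes were compared with a member, and these likenesses rest on 6 mice.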

How the data were processed

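Liver RNA of 3 control and 3 TCE mice was labeled with Cy3 and hybridized to 1-colour Agilent arrays. The authors scanned the arrays and deposited the Feature Extraction 10.7.1.1 output, in which the intensity of each spot is background-subtracted and corrected for trends. Their deposited summary gives the raw intensity and the log2 quantile-normalized mean of each group, and was used only as an alternative.

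Control spots were left out, and 123 to 189 outlier spots per array were set to missing. Log2 intensity was averaged over spots of a probe and quantile normalized over 55681 probes with no pseudocount. Group means lay within 0.01 of the deposited log2 means for 99.98% of probes. The number of arrays limits the precision. Signals of different probes are not comparable as levels of RNA.

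Detected probes were tested with limma 3.58.1 by group alone (lmFit, eBayes, two-sided tests, Benjamini-Hochberg over all detected probes) under R 4.3.3 with statmod 1.5.0 and version 1.17.8 of data.table. The methods' t-test was run on the same values. Exact permutation tests were two-sided over all 20 splits of the mice. Where a gene has several detected probes, the brightest stood for it in lists. The procedure was tested on simulated data.

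The text names all members, up to 4 genes of each list that passed (where fewer than 3 passed, the largest changes up to 3 in all), and the 3 genes nearest to each member, apart from a few genes that are not reported here. The members, gene lists and markers were chosen with earlier results of these data known, and the probe pairs and motifs after their values were seen. Alternatives were other scaling, background correction, filters, outlier spots kept, slide and replicate number as blocks, another prior, each mouse left out, the mean of a gene's probes, and other tests.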

Additional observations from a re-analysis of the deposited data

How the results depend on the processing

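With 3 mice in each group, and with Uhrf1 near background, modest changes could not be separated from the spread between mice. The number of member probes past the adjusted p and fold threshold was 0 in the reported analysis and 1 by the methods' t-test without adjustment. At any fold the count of 0 became 1 with normexp (Uhrf1), 1 with a trended and robust prior (Dnmt3a) and 6 by the methods' t-test without adjustment, and both counts stayed at 0 with each mouse left out. The 3 list genes that passed became 1 when probes had to be above background on all 6 arrays, 6 with the trended and robust prior, 1 by the methods' t-test with adjustment and 26 without it, and 2 to 4 with each mouse left out. The log2 change of Uhrf1 (3430) ran from 0.91 with normexp to 2.63, of Dnmt3a from -0.76 to -0.59, of Dnmt3b (4255) from -0.87 to -0.54, of Tet2 (9011) from -0.61 to -0.40, of Tet2 (8857) from -0.53 to -0.24 and of Tdg from 0.22 to 0.39, with no change of direction in any alternative run. Values near 0 changed sign. Dnmt1 was at -0.0059 with the slide as a block, which leaves out control mouse 1, and at -0.012 to 0.16 with each mouse left out, below 0 without control mouse 1, control mouse 2 or TCE mouse 1. Tet1 was at 0.0050 with normexp, 0.063 with the slide as a block and -0.17 to 0.16 with each mouse left out, above 0 without control mouse 1 or TCE mouse 2. Dnmt3b (3843) was at -0.52 to 0.14, above 0 without TCE mouse 2. The cause was not tested. Uhrf1 (3430) and Dnmt3b (3843) have no value when all 6 arrays had to be above background. Mice with the same replicate number did not deviate together, with correlations of 0.09, 0.01 and -0.09. These values showed no sign of pairing by that number, but with 3 mice in each group they cannot exclude it. With the replicate number as a block, 0 member probes and 3 list genes passed, and the limma adjusted p of Uhrf1 (3430) was 0.20.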
